A study of Mus musculus with 8 samples.

Results

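High-mitochondrial cells were chosen by 1 measured value, the share of their UMIs (unique molecular identifiers, each standing for 1 captured transcript) from mitochondrial genes. In these cells over 15% of UMIs came from the 13 genes of the mitochondrial genome, whatever number of genes they held. The study's methods set this limit to remove stressed or dying cells before analysis. The rule took 334 of 19125 cells from the mouse neural precursor line SN4741. Of these, 170 of 8995 cells came from 37 °C and 164 of 10130 from 39 °C. Mitochondrial and total UMIs chose the members, so the mitochondrial share, the UMIs per cell and the make-up of the mitochondrial RNA of members and kept cells are described below with no test. How many cells the rule took was compared between temperatures, which the rule did not use. The other genes of these cells were compared with kept cells of the same library, which held at most 15% mitochondrial UMIs and 200 to 6000 genes (18351 cells, 8550 at 37 °C and 9801 at 39 °C). Mitochondrial genes were left out of the totals and of each test.

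SN4741 was made as a clonal line from embryonic mouse midbrain with a heat-sensitive viral T antigen under the tyrosine hydroxylase promoter, a promoter meant to mark dopaminergic cells, and all libraries share this transgene and a genotype labelled WT. The study asked whether the move to 39 °C makes these precursors differentiate. The 37 °C group (4 libraries) grew in medium with 10% serum, and the 39 °C group (4 libraries) in 0.5% serum for 48 hours, so temperature and serum cannot be told apart. Nothing in the labels says whether replicates were separate cultures, so p-values measure the spread between libraries, which may be technical. Replicates 1, 2, 3 and 4 held 48, 50, 17 and 55 high-mitochondrial cells at 37 °C and 43, 39, 19 and 63 at 39 °C. In non-mitochondrial UMIs these cells summed to 49146 to 233169 per library, against 15752221 to 27394194 in the kept cells. Libraries shared at most 5 cell barcodes with each other, and 2 barcodes of high-mitochondrial cells in all recurred in another library.

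Mitochondrial transcripts are made and held inside the mitochondria, and a share of RNA such as Malat1 and Xist stays in the nucleus. Messenger RNA of secreted, lysosomal and membrane proteins is translated on ribosomes at the endoplasmic reticulum, while that of ribosomal proteins, glycolytic enzymes and most of the cytoskeleton is translated free in the cytosol. A high mitochondrial share is in common use as a mark of poor cell quality in droplet data. This is background and was not measured here.

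High-mitochondrial cells held about as many mitochondrial UMIs as kept cells and far fewer UMIs of all other genes. At 37 °C the median was 686, 1142, 921 and 787 mitochondrial UMIs per cell in replicates 1, 2, 3 and 4, against 811, 1126, 1189 and 739 in kept cells. At 39 °C it was 1315, 564, 852 and 637, against 1411, 697, 817 and 601.5. The members' median thus lay between 0.775 and 1.06 times that of kept cells. For all other genes the median was 1667, 2949.5, 2261 and 1257 UMIs per cell in the 37 °C members, or 0.138 to 0.215 times the kept median. In the 39 °C members it was 4244, 1445, 2972 and 2552, or 0.182 to 0.420 times the kept median. The members thus stood apart from kept cells by their low number of other transcripts, in every library.

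**Figure D1:**
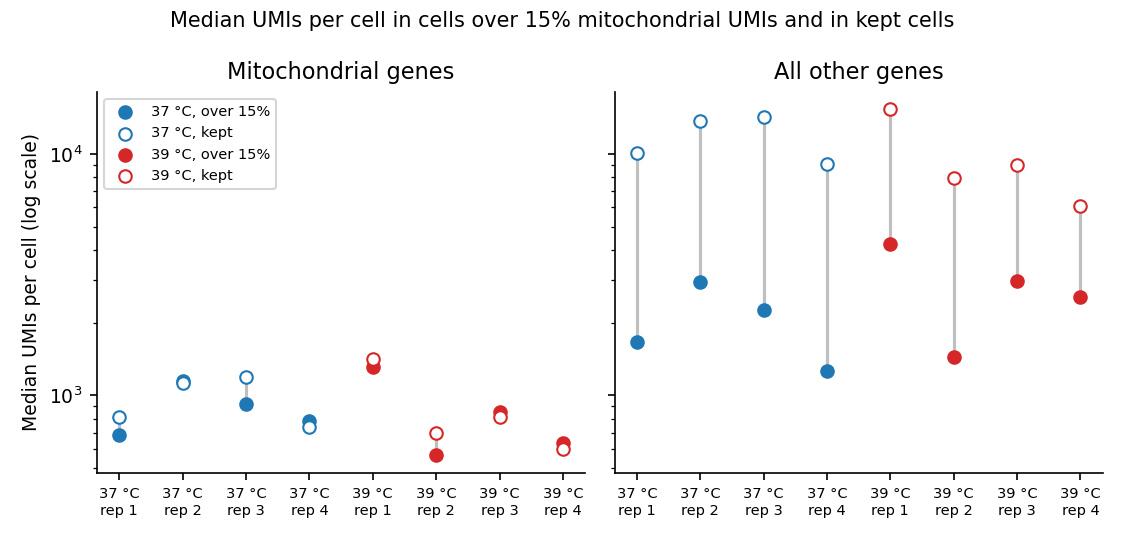
Median UMIs per cell (log axis) in each library for mitochondrial genes (left) and all other genes (right), with filled points for cells over 15% mitochondrial UMIs, open points for kept cells and a grey line joining both of 1 library. The mitochondrial points lie close together, at 0.775 to 1.06 times the kept median, while the points of all other genes lie far apart, at 0.138 to 0.420 times.

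Transcripts were not scarcer by the same factor in these cells. In mean UMIs per cell, members held 1.01 ± 0.0548 (SD, n = 4) times the mitochondrial UMIs of kept cells at 37 °C and 0.210 ± 0.0521 times those of all other genes. The ratio was 0.926 ± 0.149 for Xist, the RNA that coats the inactive X chromosome, and 0.663 ± 0.0585 for Malat1, an abundant RNA of nuclear speckles. Gm42418, which overlaps ribosomal RNA sequence, stood at 1.05 ± 0.526 with a wide spread. Lysosomal genes as a group stood at 0.463 ± 0.0563, and genes of matrix and secreted proteins at 0.346 ± 0.0563. The list of heat shock and endoplasmic reticulum chaperones stood at 0.260 ± 0.0516. Hspa5 and Canx, picked from that list, stood at 0.542 ± 0.115 and 0.593 ± 0.146. Among the lowest ratios were 0.119 ± 0.0491 for the ribosomal protein genes and 0.110 ± 0.0195 for Cdkn1a, a cell cycle inhibitor. Lower still were 0.0815 ± 0.0428 for Gapdh, an enzyme of glycolysis, and 0.0629 ± 0.0456 for Tmsb10, which binds actin monomers. At 39 °C the ratios were 1.02 ± 0.171 for mitochondrial genes, 0.342 ± 0.149 for all other genes, 0.882 ± 0.132 for Xist and 0.531 ± 0.139 for Malat1. They were 0.494 ± 0.117 for the lysosomal genes, 0.257 ± 0.203 for ribosomal protein genes and 0.250 ± 0.253 for Tmsb10. Gm42418 stood at 0.640 ± 0.138 and Canx at 0.454 ± 0.0918 at 39 °C. For these and Xist the spread between libraries was narrower than at 37 °C, and for the others named here it was wider. The mean ratios of all other genes, ribosomal protein genes and Tmsb10 at 39 °C lay within each other's spread. These ratios follow the rule that chose the cells and carry no test.

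**Figure D2:**
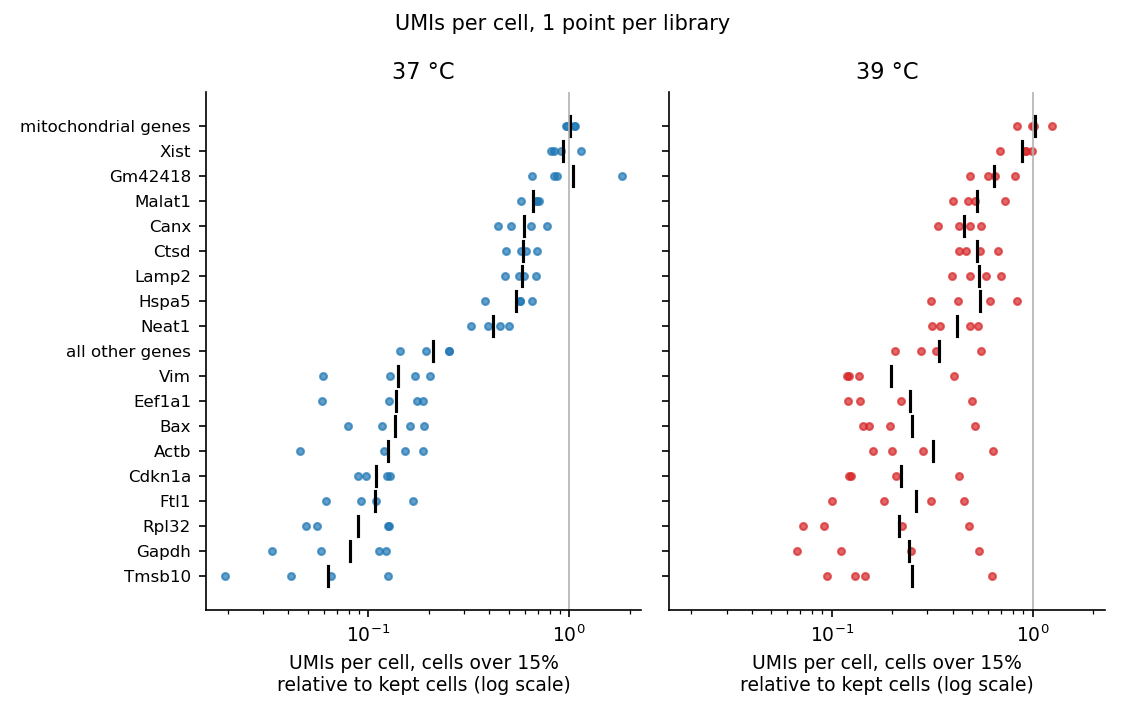
Mean UMIs per cell in cells over 15% mitochondrial UMIs divided by that in kept cells of the same library (log axis), for mitochondrial genes, all other genes and named genes, at 37 °C (left) and 39 °C (right); points are the 4 libraries and black bars their mean. At 37 °C mitochondrial genes stand at 1.01 and Tmsb10 at 0.0629 on average.

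The members covered a wide range of mitochondrial share. Between 15 and 20% lay 43 of the 37 °C cells and 77 of the 39 °C cells, between 20 and 30% 41 and 52, between 30 and 50% 57 and 25, between 50 and 90% 12 and 6, and above 90% 17 and 4. Just outside the limit, cells at 14 to 15% held a median of 3602 non-mitochondrial UMIs at 37 °C (21 cells) and 3883 at 39 °C (53 cells). Just inside, cells at 15 to 16% held 3409 (19 cells) and 3394 (29 cells). The median number of genes was 2120 and 1970 just outside and 1733 and 1572 just inside. The 21 cells above 90% held a median of 28 non-mitochondrial UMIs, 15 to 199 in each, and were almost wholly mitochondrial RNA. All 29 cells of the series under 200 genes were high-mitochondrial cells, and none of the members held over 6000 genes. In replicate 4 at 39 °C, 47 of 63 members lay at 15 to 20%, against 11 of 43, 9 of 39 and 10 of 19 in replicates 1, 2 and 3. The lists at 39 °C are given without this library in a paragraph of their own.

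The share of high-mitochondrial cells did not differ between temperatures beyond the spread between libraries. They made up 1.89% ± 0.776 (SD, n = 4) of cells at 37 °C and 1.90% ± 1.27 at 39 °C, a difference of 0.00475 percentage points (exact permutation test, two-sided, with 70 ways to assign the libraries, p = 1). Above a share of 30% the means were 0.939% ± 0.350 and 0.458% ± 0.426 (exact permutation p = 0.143), and leaving out 1 library moved the difference at 15% between -0.592 and 0.395 points. With a lower limit, 9.84% ± 0.566 of cells at 37 °C and 21.6% ± 7.04 at 39 °C held over 10% (exact permutation p = 0.0286, the smallest that 4 against 4 libraries can give, and 0.114 after Benjamini-Hochberg adjustment over 4 limits). Most of the excess at 39 °C over 10% thus lay in cells at 10 to 15%, which are not members.

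Among mitochondrial transcripts, members held relatively more mt-Atp6 and less mt-Co1. mt-Atp6, a subunit of the ATP synthase, made up 25.5% ± 1.31 of the mitochondrial UMIs of members at 37 °C against 22.1% ± 0.312 in kept cells, and 22.6% ± 0.795 against 20.1% ± 0.426 at 39 °C. mt-Co1, the catalytic subunit of cytochrome c oxidase, made up 7.55% ± 1.10 against 9.92% ± 0.330 at 37 °C and 9.91% ± 1.09 against 12.8% ± 0.329 at 39 °C. mt-Atp6 was higher and mt-Co1 lower in 4 of 4 libraries at each temperature, and mt-Nd2, a subunit of complex I, was higher in 4 of 4 likewise (8.53% against 7.99%, and 9.38% against 7.88%). The complex I genes mt-Nd1 and mt-Nd4 were lower in 4 of 4 libraries at 37 °C and in 2 of 4 at 39 °C. These are genes the rule used, and their shares were not tested.

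At an equal low depth, the number of genes detected did not differ from kept cells beyond the spread between libraries. After each cell was thinned to 500 non-mitochondrial UMIs, the library median was 382 ± 7.27 genes (SD, n = 8) in members and 385 ± 6.90 in kept cells (difference -3.00 ± 8.65, lower in 5 of 8, two-sided exact sign-flip permutation test over 8 libraries, p = 0.422). Thinning left out 39 members and 7 kept cells with fewer UMIs. At 2000 UMIs, which left out 165 members, the difference turned to 31.7 more genes in members (exact permutation p = 0.0313, and 0.0938 after Benjamini-Hochberg adjustment over 3 depths).

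Genes other than mitochondrial ones were then compared by summing counts over the members and over the kept cells of each library and testing the 16 sums in edgeR with the library as a block, so that "rose" and "fell" refer to a gene's share of non-mitochondrial UMIs, not to its copies per cell. Levels are CPM, a gene's UMIs scaled to a fixed total of non-mitochondrial UMIs, and adjusted by the trimmed mean of M-values (TMM). Of 8846 genes tested at 37 °C, 728 were higher in members (8.23%) and 1016 were lower (11.5%), at an adjusted p under 0.05. At 39 °C 114 were higher in members (1.29%) and 180 lower (2.03%). The median gene moved by -0.06 at 37 °C and -0.02 at 39 °C on the log2 scale. With library totals in place of TMM factors it moved by 0.18 and 0.10, and the split became 1229 higher of 1818 at 37 °C and 246 higher of 320 at 39 °C, so a gene with a small change is not placed by these data. Of the 294 genes called at 39 °C, 237 were called at 37 °C too, 80.6% of the 39 °C calls and 13.6% of the 37 °C calls, with 236 in the same direction.

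The number of calls at 39 °C rested on single libraries and on where the limit was set. Without replicate 1, 2, 3 or 4 at 39 °C it was 6, 18, 75 or 891, and without replicate 2 at 37 °C it was 192. Members over 20% alone gave 1085 calls at 39 °C and 2043 at 37 °C, while members at 15 to 20% alone gave 7 and 167. At 37 °C the count fell to 966 without replicate 4. Depth moved with the groups too. Against an equal number of kept cells chosen for a like number of non-mitochondrial UMIs (median 2325.5 against 2025.5 in members), 592 genes passed at 37 °C and 15 at 39 °C. In replicate 4 at 37 °C the chosen kept cells stayed deeper, with a median of 2256 against 1257 in members, so depth was not matched in that library. The part of depth in the other calls was not tested.

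RNA held in the nucleus made up a larger part of the remaining transcripts. Of 14 listed nuclear-retained RNAs 6 were tested, and 4 rose at 37 °C and 2 at 39 °C with none falling (median log2 fold change 1.03 and 0.58). Without replicate 4 at 37 °C 2 rose there, and without replicate 1 or 2 at 39 °C 1 rose at 39 °C. As a share of non-mitochondrial UMIs the list took 7.60, 8.18, 7.76 and 11.1% in replicates 1, 2, 3 and 4 at 37 °C, against 2.29 to 3.00% in kept cells. At 39 °C it took 18.5, 11.2, 8.84 and 4.82%, against 5.49 to 7.09% in kept cells. The share of this RNA was thus no higher in members of replicate 4 at 39 °C than in kept cells, and it was higher in the other 7 libraries. In mean UMIs per cell, members held less of it, at 0.575 to 0.698 times kept cells at 37 °C and 0.409 to 0.726 times at 39 °C.

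Malat1 (chromosome 19, 5795690 to 5802672, minus strand, GRCm38) carried most of that share. Its level was 69155, 75605, 63386 and 96841 CPM in the 37 °C members against 29311, 31855, 26789 and 23696 in kept cells. Members and kept cells did not overlap at 37 °C, and the log2 fold change was 1.44 ± 0.37 (SE, edgeR adjusted p = 0.00237), or 1.21 without replicate 4 (adjusted p = 0.064). At 39 °C its level was 179503, 95585, 81003 and 45637 CPM against 72453, 58842, 58336 and 55356, higher in 3 of 4 libraries, and its log2 fold change of 0.55 ± 0.37 did not pass (edgeR adjusted p = 0.458), nor did that of 0.83 without replicate 4 (adjusted p = 0.107).

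Xist (chromosome X, 103460366 to 103483254, minus strand) separated members from kept cells at both temperatures. Its level was 2358, 2714, 2288 and 3342 CPM in the 37 °C members against 755, 684, 688 and 683 in kept cells, and the log2 fold change was 1.92 ± 0.24 (edgeR adjusted p = 8.64e-10). In the 39 °C members it was 2828, 3230, 1620 and 1516 CPM against 836, 872, 873 and 946, and the log2 fold change was 1.31 ± 0.24 (edgeR adjusted p = 0.00036, and 0.055 without replicate 2). Every member sum lay above every kept sum. Tsix is transcribed across the same locus from the other strand, and the sources used here do not state how strand was counted. Kcnq1ot1, an imprinted antisense RNA, rose by 1.29 ± 0.24 at 37 °C and 0.90 ± 0.24 at 39 °C (edgeR adjusted p = 2.94e-05 and 0.0256), although at 39 °C it was higher in 2 of 4 libraries. Neat1, the scaffold RNA of paraspeckles, rose by 0.77 ± 0.24 at 37 °C (edgeR adjusted p = 0.0117) and not without replicate 4 (0.52, adjusted p = 0.22) or without replicate 2 (0.76, adjusted p = 0.065).

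All 4 genes listed for overlap with ribosomal RNA sequence rose at 37 °C and 2 of 4 at 39 °C (median log2 fold change 1.92 and 0.91), and at 39 °C none passed without replicate 1 or 2 and 1 passed without replicate 3 (edgeR). Gm42418 (chromosome 17, 39846958 to 39848788) stood at 2898, 1220, 1373 and 2527 CPM in the 37 °C members against 464, 417, 513 and 499 in kept cells, and the log2 fold change was 2.00 ± 0.23 (edgeR adjusted p = 8.21e-11). Its level at 39 °C was 1618, 1300, 1151 and 788 CPM against 789, 663, 658 and 555 (0.83 ± 0.23, edgeR adjusted p = 0.0272). Its 39 °C log2 fold change was -0.11 with kept cells of matched depth, and it did not pass without replicate 1, 2 or 3 (0.76 to 0.84). A single member gave 194 of its 929 UMIs at 37 °C. Gm42418 and AY036118 lie on opposite strands of the same stretch and cannot be told apart if strand was not used. Lars2, the mitochondrial leucyl-tRNA synthetase, rose by 2.37 ± 0.32 at 37 °C (edgeR adjusted p = 8.83e-09) on 54 UMIs in 33 cells, and its log2 fold change was 0.78 with matched depth (adjusted p = 0.24). The 17 cells above 90% at 37 °C held 722 non-mitochondrial UMIs in all, of which Gm42418 gave 43, Malat1 41 and Lars2 19.

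Genes of the ribosome took a smaller part of these transcripts. Of 79 cytosolic ribosomal protein genes, 74 fell at 37 °C and 44 at 39 °C with none rising, and the median log2 fold change was -1.16 (range -1.58 to -0.45) and -0.83 (range -1.17 to -0.22). With library totals only, the median was -0.90 and -0.68 and the counts were 70 and 18. Against kept cells of matched depth the median was -0.96 and -0.72. The list took 13.0, 12.02, 9.39 and 7.94% of non-mitochondrial UMIs in the 37 °C members against 18.7 to 20.2% in kept cells, and 6.95, 11.8, 15.7 and 19.4% in the 39 °C members against 18.5 to 20.3%. Members of replicate 4 at 39 °C again lay among the kept cells. Without that library 74 of the genes fell at 39 °C (median -1.08), while without replicate 1 or 2 none passed the test in edgeR and without replicate 3 a count of 8 did. Ribosomal protein genes have near-identical copies elsewhere in the genome, so single counts are less certain than the list.

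Rpl32, a protein of the large subunit, shows the pattern. Its level was 1654, 1479, 739 and 955 CPM in the 37 °C members against 3838, 3368, 3244 and 3342 in kept cells (log2 fold change -1.56 ± 0.26, edgeR adjusted p = 4.00e-06). In the 39 °C members it was 723, 1413, 2286 and 3062 CPM against 2949, 3819, 3786 and 3664 (-1.10 ± 0.26, edgeR adjusted p = 0.01, and not called without replicate 1 or 2). Rps25, of the small subunit, fell by 1.54 and 1.13. Translation factors followed, with 15 of 20 falling at 37 °C and 7 at 39 °C (median -0.82 and -0.71). Tpt1, a growth-related protein under translational control, fell by 1.51 ± 0.28 at 37 °C and 0.90 ± 0.28 at 39 °C (edgeR adjusted p = 2.21e-05 and 0.047). Eef1a1, the elongation factor that brings transfer RNA to the ribosome, fell by 0.95 ± 0.27 at 37 °C (edgeR adjusted p = 0.00543) and stood at -0.77 ± 0.27 at 39 °C (adjusted p = 0.0859).

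Of 23 genes of the actin cytoskeleton, 18 fell at 37 °C and 3 at 39 °C (median -1.22 and -0.57). Fewer genes in all were called at 39 °C, and the test of the difference between temperatures called none of these genes in edgeR. The list's medians in members over 20% were -1.84 and -1.37. Tmsb10 stood at 374, 180, 141 and 81.5 CPM in the 37 °C members against 871, 787, 831 and 722 in kept cells, with no overlap (log2 fold change -2.07 ± 0.26, edgeR adjusted p = 1.14e-09). The 39 °C level was 183, 290, 212 and 562 CPM against 566, 554, 536 and 516 (-0.86 ± 0.25, edgeR adjusted p = 0.0326). The smooth muscle genes Tagln and Acta2 fell by 2.94 ± 0.45 and 2.35 ± 0.32 at 37 °C (edgeR adjusted p = 4.23e-07 and 1.61e-08). Tagln rested on 7 UMIs in 6 members, and its log2 fold change was 0.84 against kept cells of matched depth. Actb, cytoplasmic actin, stood at 2876, 3850, 2992 and 1747 CPM against 5499, 5932, 6114 and 6562 at 37 °C (-1.11 ± 0.26, edgeR adjusted p = 0.000585). Of 13 tubulin and intermediate filament genes, 8 fell at 37 °C and 2 at 39 °C (median -0.87 and -0.62). Among them Vim, the vimentin of precursor cells, fell by 0.93 ± 0.26 and 1.06 ± 0.26 (edgeR adjusted p = 0.0061 and 0.0148). Against kept cells of matched depth the median of this list was -0.09 at 37 °C and -0.32 at 39 °C. That of the actin list was -0.66 and -0.37, and that of all tested genes 0.02 at each temperature.

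Most nuclear-encoded respiratory chain genes fell at 37 °C, while most genes of the other lists of mitochondrial proteins did not pass the test. Set beside these lists, 8.23% of all tested genes rose and 11.5% fell at 37 °C, and 1.29% and 2.03% at 39 °C. Of 78 nuclear-encoded respiratory chain genes, 45 fell at 37 °C and 10 at 39 °C with none rising (median -0.69 and -0.51). Against kept cells of matched depth the median was -0.37 and -0.30. Ndufs6, a complex I subunit, stood at 71.9, 79.2, 52.8 and 0 CPM in the 37 °C members against 203, 199, 187 and 190 in kept cells (log2 fold change -1.80 ± 0.31, edgeR adjusted p = 7.98e-06). Of 23 genes for mitochondrial gene expression and import, 5 fell at 37 °C and none passed the test at 39 °C in edgeR (5 at an unadjusted p under 0.05, none by DESeq2; median -0.33 and -0.36). Among those 5, Tfam, which packages and transcribes mitochondrial DNA, fell by 1.07 (edgeR adjusted p = 0.0347). Of 16 genes for mitochondrial dynamics and mitophagy, 6 fell at 37 °C and 1 at 39 °C (median -0.73 and -0.27). The 1 was Sqstm1, the autophagy receptor p62, which fell by 1.25 ± 0.26 and 1.04 ± 0.24 (edgeR adjusted p = 0.000103 and 0.0085). Of 13 mitochondrial chaperones and proteases, Hspe1 and Hspd1, which fold proteins of the matrix, fell at 37 °C and the proteases Lonp1 and Yme1l1 rose, while Hspe1 alone passed the test at 39 °C, falling by 0.80. The median of this list was -0.06 at 37 °C, as for all tested genes. Its counts, and those of gene expression and import, are small and are not read as a result about the lists. Hspe1 and Hspd1 overlap on opposite strands.

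Genes of the lysosome and of secreted proteins rose at 37 °C. Of 21 lysosomal genes 11 rose and none fell (median 0.92), and 1, Psap, rose at 39 °C (median 0.58). The 39 °C count was 12 without replicate 4 there and 0 without replicate 1, 2 or 3 (edgeR). Ctsd, a lysosomal protease, stood at 1215, 1019, 1179 and 1444 CPM in the 37 °C members against 512, 479, 498 and 514 in kept cells, with no overlap (log2 fold change 1.27 ± 0.22, edgeR adjusted p = 9.49e-06). At 39 °C it stood at 1487, 1439, 863 and 867 CPM against 798, 771, 742 and 747, higher in 4 of 4 libraries (0.57 ± 0.22, edgeR adjusted p = 0.129). Lamp2, a protein of the lysosomal membrane, rose by 1.23 ± 0.22 at 37 °C (edgeR adjusted p = 1.40e-05). Of 22 matrix and secreted proteins 12 rose at 37 °C and 1 at 39 °C (median 0.65 and 0.21), among them the collagen genes Col6a1 (1.95 ± 0.37) and Col1a1 (0.82) at 37 °C. Without replicate 3 or 4 at 37 °C 7 of them rose, and the 39 °C median was -0.05 without replicate 1 and 0.53 without replicate 4 at 39 °C.

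Of 25 heat shock and endoplasmic reticulum chaperones, 5 rose and 4 fell at 37 °C. Those that rose were Canx, Pdia6, Hsp90b1, Hspa5 and Calr, which are known to fold proteins inside the endoplasmic reticulum, and those that fell were Dnajb1, Hsp90ab1, Dnaja1 and Hspa8, which are known from the cytosol. The other 16, which include genes of both compartments, did not pass and lay between -1.21 and 0.57, 6 above 0 and 10 below. No list by compartment was tested. Among all tested genes 8.23% rose and 11.5% fell at 37 °C, and these few calls are not read as a result about compartments. In members at 15 to 20% alone, Hspa5, Hsp90b1 and Pdia6 stood at -0.58, -0.55 and -0.18, where the median of all tested genes was -0.34. Hspa5 stood at 1014, 1626, 2147 and 2783 CPM in the 37 °C members against 777, 820, 801 and 847 in kept cells (log2 fold change 1.13 ± 0.23, edgeR adjusted p = 0.000108). Canx rose by 1.24 ± 0.22 (edgeR adjusted p = 9.18e-06). None of the 25 passed the test at 39 °C in edgeR (10 at an unadjusted p under 0.05, 4 by DESeq2), where the log2 fold changes of the 5 were 0.35 to 0.69. The list's median was -0.15 at 37 °C and 0.25 at 39 °C, and 0.09 and 0.37 with library totals.

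**Figure D3:**
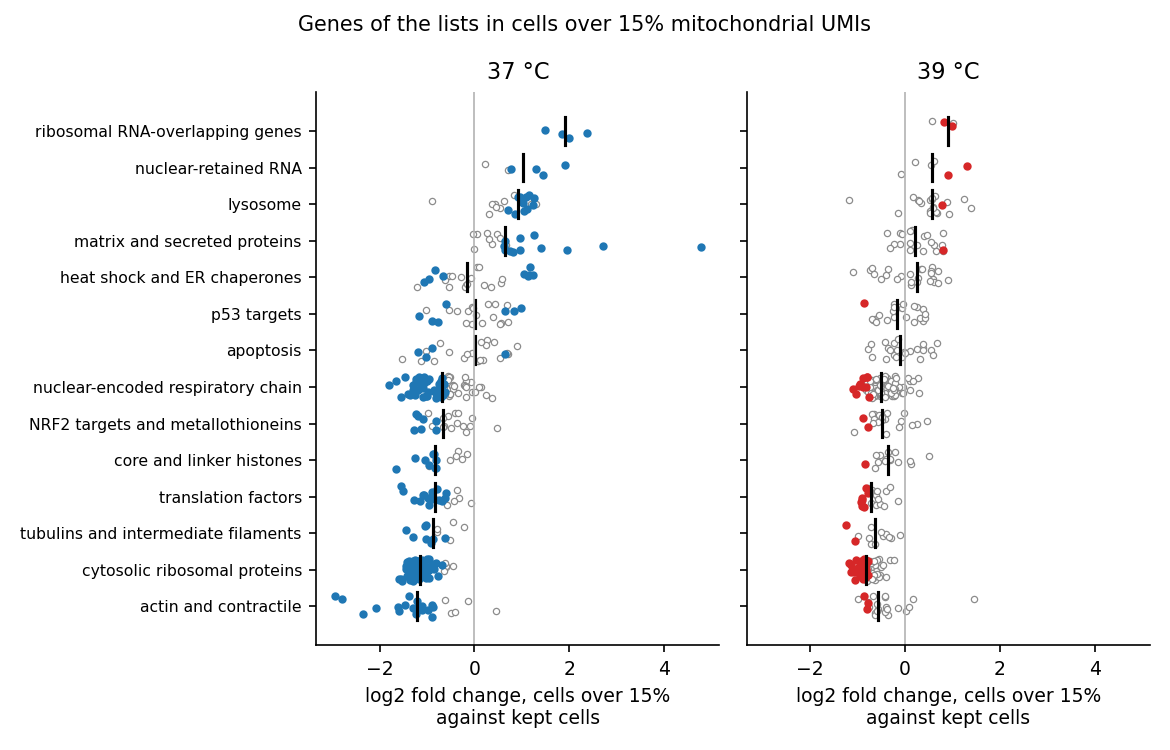
log2 fold change of each tested gene of 14 lists in cells over 15% mitochondrial UMIs against kept cells at 37 °C (left) and 39 °C (right); filled points passed the test, open points did not, and black bars are medians. Ribosomal RNA-overlapping genes (1.92), nuclear-retained RNA (1.03) and the lysosome (0.92) lie to the right at 37 °C, and ribosomal protein genes (-1.16) and actin genes (-1.22) to the left.

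Genes of cell death and stress moved in both directions or did not pass the test. Over all tested genes 8.23% rose and 11.5% fell at 37 °C, and 1.29% and 2.03% at 39 °C. The counts below come from short lists, lie near these shares and are not read as a result about the lists. Of 24 apoptosis genes 1 rose and 3 fell at 37 °C, and none passed the test at 39 °C in edgeR (3 at an unadjusted p under 0.05, 1 by DESeq2). Their median was 0.00 and -0.10, or 0.24 and 0.01 with library totals. Bax, which permeabilises the outer mitochondrial membrane, stood at 654, 544, 475 and 477 CPM in the 37 °C members against 1013, 971, 990 and 1036 in kept cells (log2 fold change -0.90 ± 0.23, edgeR adjusted p = 0.00237). Bad and Bok, relatives of Bax, fell by 1.02 and 1.20, and Aifm1, a mitochondrial flavoprotein that can act in cell death, rose by 0.65. Of 24 p53 targets 3 rose and 4 fell at 37 °C, and 1 fell at 39 °C (median 0.00 and -0.17). That gene was Cdkn1a, the cell cycle inhibitor p21, which stood at 712, 591, 581 and 792 CPM against 1612, 1378, 1455 and 1537 at 37 °C and at 1006, 1388, 1484 and 1947 against 2422, 2750, 2628 and 2601 at 39 °C, a fall of 1.17 ± 0.24 and 0.87 ± 0.23 (edgeR adjusted p = 0.000156 and 0.0256). Of 19 genes of the integrated stress response 2 rose and 3 fell at 37 °C, and 1, Cebpb, fell at 39 °C (median -0.23 and -0.25). The larger rise at 37 °C was in Gdf15, a stress-induced cytokine, at 316, 438, 334 and 454 CPM against 165, 138, 203 and 165 (1.24 ± 0.22, edgeR adjusted p = 1.48e-05).

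Among the other lists, NRF2 targets and metallothioneins fell (7 of 22 at 37 °C and 2 at 39 °C, median -0.65 and -0.49), with the ferritin genes Ftl1 and Fth1 lower by 1.27 and 1.23 at 37 °C. Over all tested genes 8.23% rose and 11.5% fell at 37 °C. Core and linker histones fell in 9 of 15 and 1 cases (median -0.82 and -0.35), and glycolysis genes in 6 of 17 and 2 (median -0.47 and -0.41). Gapdh stood at 467, 597, 317 and 279 CPM in the 37 °C members against 1208, 1408, 1322 and 1458 in kept cells (-1.69 ± 0.24, edgeR adjusted p = 7.89e-08). Of 21 immediate-early genes 3 rose and 3 fell at 37 °C and 1, Klf2, rose at 39 °C (median -0.56 and -0.16). Of 20 cholesterol synthesis genes 3 rose and 2 fell at 37 °C and none passed the test at 39 °C in edgeR (3 at an unadjusted p under 0.05, none by DESeq2; median 0.08 and 0.29). Seurat's S phase list had 6 of 41 genes lower at 37 °C (median -0.30) and its G2M list 3 higher and 4 lower of 51 (median -0.03), with none past the test at 39 °C in edgeR (median 0.06 for both; 5 and 2 at an unadjusted p under 0.05, and 0 and 1 by DESeq2). Against kept cells of matched depth the G2M median was 0.68 at 37 °C and 0.01 at 39 °C, and the S phase median -0.11 and 0.11. Of 8 genes the study used as markers of temperature 3 rose and 1 fell at 37 °C (median 0.26), among them Hmga2, a chromatin protein of growing cells, which rose by 1.51 ± 0.27 (edgeR adjusted p = 1.23e-05). At 39 °C none of the 8 passed in edgeR (1 at an unadjusted p under 0.05, none by DESeq2). Of 7 dopaminergic markers 2 were tested and neither passed at either temperature.

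Some genes were named by the size of their change and not by a list. Atg9b, a membrane protein of autophagy, stood at 137, 63.4, 123 and 105 CPM in the 37 °C members against 24.1, 22.5, 26.8 and 26.7 in kept cells (log2 fold change 2.05 ± 0.30, edgeR adjusted p = 1.54e-07). Its level at 39 °C was 346, 379, 257 and 161 CPM against 105, 87.9, 82.8 and 89.1 (1.56 ± 0.22, edgeR adjusted p = 1.64e-07). Atg9b overlaps Nos3 on the other strand. Members lay above kept cells in all 8 libraries, and against kept cells of matched depth the fold changes were 1.02 and 0.97 (adjusted p = 0.10 and 0.092). P2rx7, a channel gated by extracellular ATP, rose by 2.07 ± 0.27 and 1.18 ± 0.24 (edgeR adjusted p = 1.97e-09 and 0.00218). Tm4sf1, a surface protein, rose by 2.16 ± 0.31 at 37 °C (edgeR adjusted p = 6.90e-08), led by replicate 3 at 370 CPM. Mgp, a secreted inhibitor of calcification, rose by 1.30 ± 0.23 at 39 °C (edgeR adjusted p = 0.00036), but 67 of its 155 UMIs there came from 1 cell and its log2 fold change was 0.76 without replicate 1 (adjusted p = 0.29). Tapbp, which loads peptides onto surface proteins in the endoplasmic reticulum, rose by 0.95 and 1.31 (edgeR adjusted p = 0.00223 and 0.0036), and Eif3i, a subunit of a translation initiation factor, fell by 1.38 and 1.28 (edgeR adjusted p = 6.79e-05 and 0.00456). The cyclin gene Ccnd2 fell by 0.98 and 1.32 (edgeR adjusted p = 0.00783 and 0.00948). Against kept cells of matched depth its log2 fold changes were 0.17 and -0.80, and neither passed.

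Without replicate 4 at 39 °C, the library with most members near the limit, more genes of most lists passed at 39 °C. Over all 8846 tested genes the calls went from 294, 114 of them higher, to 891, 369 of them higher. The counts of the lists thus grew along with those of all genes. Falls were counted in 31 nuclear-encoded respiratory chain genes (median -0.68) instead of 10, in 13 translation factors (median -0.86) instead of 7, in 8 actin genes (median -0.70) instead of 3, in 5 tubulin and intermediate filament genes (median -0.73) instead of 2, in 5 NRF2 targets (median -0.68) and 5 glycolysis genes (median -0.48) instead of 2 each, in 4 genes of mitochondrial dynamics (median -0.36) and 3 histones (median -0.54) instead of 1 each, and in 3 genes of mitochondrial gene expression and import (median -0.50) instead of 0. Rises were counted in 4 matrix genes (median 0.53) instead of 1, in 3 of the genes overlapping ribosomal RNA (median 1.04) instead of 2, and in 5 of the chaperones instead of 0, while 2 chaperones fell (median 0.05). For nuclear-retained RNA the count stayed at 2 (median 0.76). Of the stress and death lists, apoptosis had 1 rise and 2 falls (median -0.08), p53 targets had 3 falls (median -0.08), the integrated stress response had 1 of each (median -0.57) and immediate-early genes had 1 rise and 4 falls (median -0.18). The median of mitochondrial chaperones and proteases went from -0.08 to -0.41. Without replicate 1 or 2 at 39 °C none of the lists kept a call there in edgeR except nuclear-retained RNA, with 1.

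Transcript length ran along the change. When genes were ranked by the length of their longest transcript and divided into 4 equal bins, in the bin of shortest genes 97 rose and 659 fell at 37 °C (median -0.59), and in the bin of longest genes 308 rose and 34 fell (median 0.31). At 39 °C the medians were -0.32 and 0.18. The shortest bin without ribosomal protein genes gave a median of -0.56 at 37 °C, a measurement without the largest list of short genes. Of 98 long noncoding genes 23 rose and 4 fell at 37 °C (median 0.61), and 10 and 1 at 39 °C (median 0.42). Length, coding status and the compartment of the product run together in these lists and cannot be told apart here.

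Composition is given here by the mitochondrial share of the cells above the limit, pooled over the libraries of a temperature. Ribosomal protein genes took 19.2% of non-mitochondrial UMIs in kept cells at 37 °C, 16.9% in members at 15 to 20%, 7.44% at 20 to 30%, 5.51% at 30 to 50% and 4.51% at 50 to 90%. At 39 °C the values were 19.7, 17.9, 8.08, 4.93 and 5.97%. Nuclear-retained RNA ran the opposite way, from 2.67% in kept cells to 5.12, 10.1, 13.2 and 11.3% at 37 °C and from 5.88% to 6.45, 17.3, 16.7 and 19.4% at 39 °C. Lysosomal genes went from 0.462% in kept cells to 1.43% at 30 to 50% at 37 °C, and from 0.582% to 1.56% at 39 °C. Cells above 90% went against this trend, with 13.4% ribosomal protein UMIs at 37 °C and 35.0% at 39 °C, on 722 and 197 UMIs in all.

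Libraries gave unequal numbers of cells to these ranges, and replicate 4 at 39 °C gave 47 of 77 cells at 15 to 20%. Within each library, ribosomal protein genes took 15.2, 17.8, 19.0 and 19.0% at 15 to 20% in replicates 1, 2, 3 and 4 at 37 °C and 5.35, 5.34, 6.07 and 5.43% at 30 to 50%. At 39 °C they took 11.2, 18.1, 17.96 and 20.1% at 15 to 20% and 4.28, 5.56, 4.66 and 4.66% at 30 to 50%. The share was thus lower in the range of 30 to 50% in 8 of 8 libraries. Some of these values rest on few cells. Replicates 1, 3 and 4 at 39 °C held 4 cells each at 30 to 50%. Replicate 3 at 37 °C held 4 at 15 to 20% and 3 at 20 to 30%. Between these, at 20 to 30%, the libraries lay apart, at 12.2, 6.57, 6.36 and 3.48% at 37 °C and 4.63, 8.24, 13.95 and 16.5% at 39 °C. Nuclear-retained RNA took 3.52 to 6.24% at 15 to 20% and 7.10 to 16.04% at 30 to 50% at 37 °C, and 4.30 to 14.02% and 12.3 to 18.2% at 39 °C, higher in the range of 30 to 50% in 8 of 8 libraries. Pooled without replicate 4, the 39 °C shares at 15 to 20, 20 to 30 and 30 to 50% were 14.6, 6.41 and 4.96% for ribosomal protein genes and 9.57, 19.4 and 17.2% for nuclear-retained RNA.

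Tested alone, members at 15 to 20% showed part of the pattern. At 37 °C 26 of 79 ribosomal protein genes fell in them (median -0.68, and -2.09 in members over 20%), and 12 of 23 actin genes did (median -1.06 and -1.84). None of 21 lysosomal genes passed in edgeR at 15 to 20% (median 0.03, and 1.01 over 20%). The matrix list had a median of -0.33 at 15 to 20% and 0.78 over 20%. For all tested genes the median was -0.34 at 15 to 20% and -0.23 over 20% at 37 °C, and -0.14 and -0.22 at 39 °C. The matrix list at 15 to 20% thus lay at the level of all tested genes. Hspa5 and Hsp90b1, which rose over all members, had log2 fold changes of -0.58 and -0.55 in members at 15 to 20%. At 39 °C none of the 79 ribosomal protein genes passed at 15 to 20% in edgeR (median -0.53), and 78 fell over 20% (median -1.67).

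**Figure D4:**
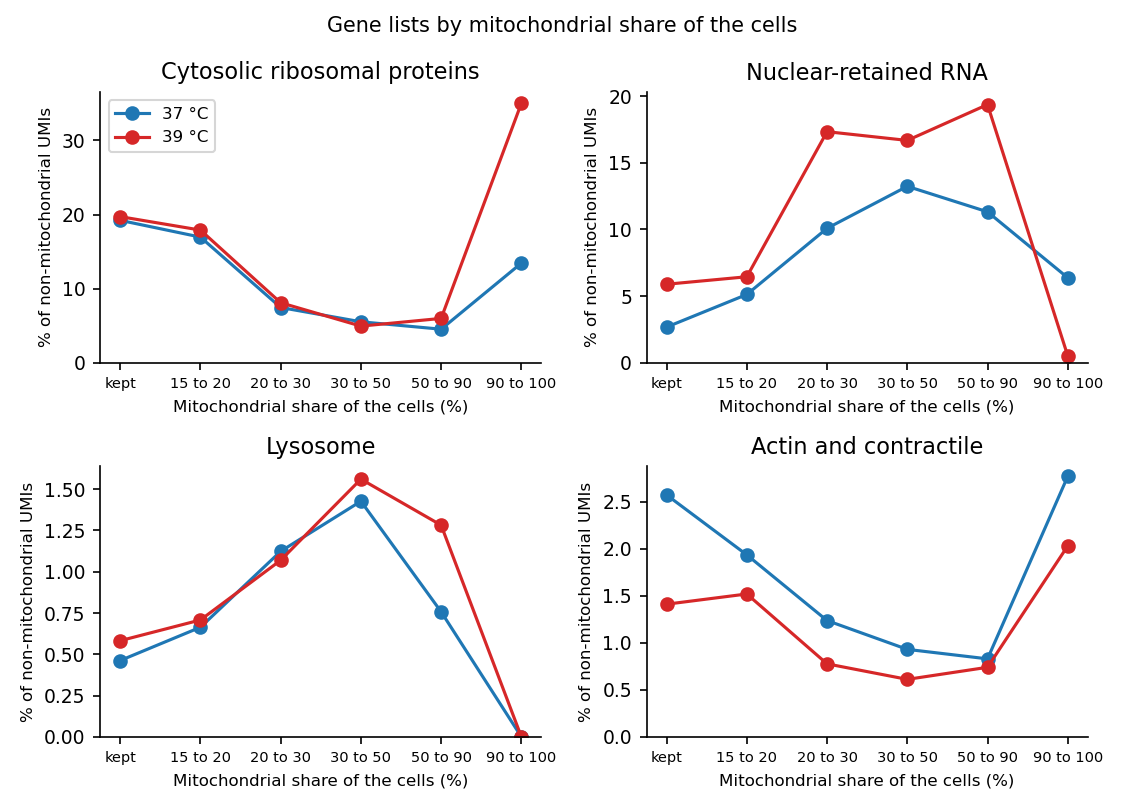
Share of non-mitochondrial UMIs (%) taken by 4 gene lists in kept cells and in members by mitochondrial share, pooled over the 4 libraries of each temperature. Ribosomal protein genes drop between 15 to 20% and 20 to 30%, where nuclear-retained RNA climbs to 10.1% at 37 °C and 17.3% at 39 °C; the last point rests on 722 (37 °C) and 197 (39 °C) UMIs.

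Cell by cell, members with a low ribosomal protein share could be set beside members with a share like that of kept cells. A line at 10%, drawn after the values were seen, was applied to the 150 members at 37 °C and 158 at 39 °C with at least 200 non-mitochondrial UMIs. Below it lay 27 of 44, 31 of 43, 12 of 15 and 41 of 48 members in replicates 1, 2, 3 and 4 at 37 °C, and 30 of 39, 25 of 37, 7 of 19 and 9 of 63 at 39 °C. Of kept cells 0.830% at 37 °C and 0.418% at 39 °C lay below it, and of kept cells under 4000 non-mitochondrial UMIs 4.26% and 1.20%. Only 14 members at 37 °C and 11 at 39 °C lay between 8 and 12%. The lower range grew with mitochondrial share, from 1 of 19 cells at 15 to 16% to 15 of 19 at 20 to 25% and 37 of 38 at 30 to 40% at 37 °C. At 39 °C it grew from 2 of 29 to 11 of 25 and 21 of 22 over the same steps.

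By their medians, pooled over the libraries of a temperature, members in the lower range held more mitochondrial UMIs and fewer others than members in the upper range. At 37 °C its 111 cells held a median of 851 mitochondrial and 1652 other UMIs, with 4.93% ribosomal protein UMIs and 11.8% Malat1. The 39 members in the upper range held 761 and 3409, with 19.4% and 2.47%, close to the 18.7% and 2.22% of kept cells. At 39 °C the 71 cells of the lower range held 981 mitochondrial and 2109 other UMIs, with 4.00% ribosomal protein UMIs and 17.1% Malat1, and the 87 of the upper range 637 and 2636, with 19.6% and 3.65%, against 19.6% and 5.30% in kept cells. The ribosomal protein shares follow from the line that made the ranges. The Malat1 share of the upper range lay near that of kept cells at 37 °C and below it at 39 °C, and that of the lower range lay above it at both. Libraries gave unequal numbers of cells to the ranges. At 39 °C replicate 1 gave 30 of the 71 cells of the lower range, while only 9 of the 63 members of replicate 4 lay there. Kept cells of these libraries differed too, with a median of 1411 mitochondrial UMIs in replicate 1 and 601.5 in replicate 4. The part of the library in these medians was not tested. These are ranges of 1 measure, not cell types.

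**Figure D5:**
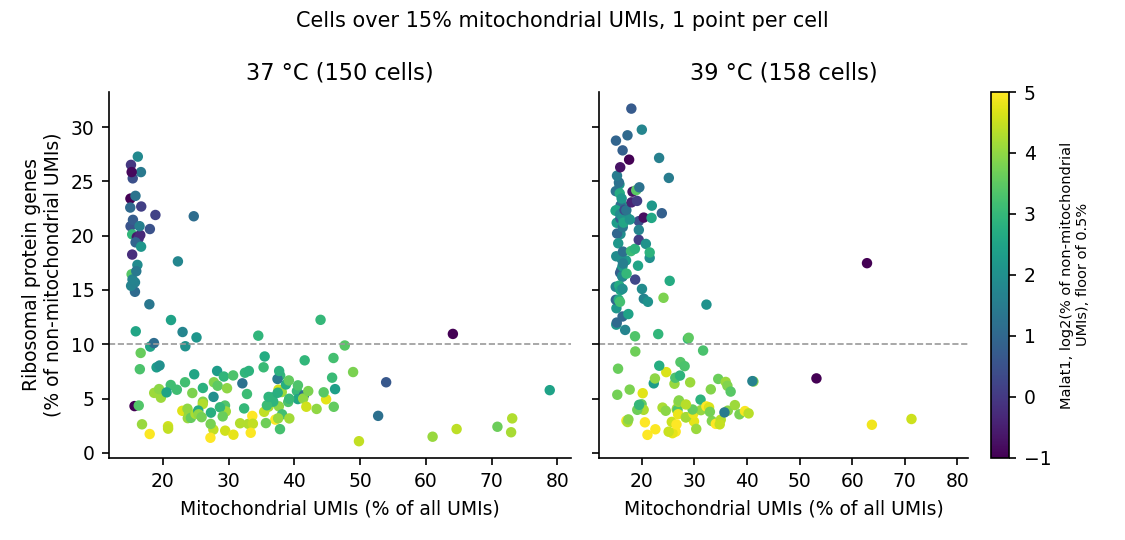
Each point is 1 member with at least 200 non-mitochondrial UMIs, by mitochondrial share of all UMIs (x axis, %) and ribosomal protein share of non-mitochondrial UMIs (y axis, %), at 37 °C (150 cells) and 39 °C (158 cells), coloured by Malat1 share; the dashed line marks 10%. Most points at 15 to 20% lie above the line with little Malat1, and most beyond 25% lie below it with much.

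Defining markers of other cell types had few UMIs in the members. Of 6 epithelial markers none had a UMI at 37 °C and 1 had 1 UMI at 39 °C, and of 6 erythroid markers 1 had 4 UMIs at 37 °C and none had any at 39 °C. The erythroid sum was 0 to 25.3 CPM of non-mitochondrial UMIs in the 37 °C members against 1.84 to 3.25 in kept cells. Of 8 immune markers 2 were detected at each temperature, with 24 UMIs at 37 °C and 41 at 39 °C, and Ptprc, Csf1r, Aif1, Tyrobp and Cd3e were at 0. Their sum was 20.3 to 88.4 CPM of non-mitochondrial UMIs in the 37 °C members against 22.3 to 25.7 in kept cells, and 28.0 to 125 against 30.9 to 41.0 at 39 °C. Of 6 endothelial markers 4 were detected at 37 °C (17 UMIs) and 2 at 39 °C (25 UMIs), with Cdh5 and Kdr at 0, and their sum was 0 to 54.1 CPM against 20.1 to 24.9 and 12.9 to 83.9 against 23.7 to 26.4. Of 8 glial markers 3 and 4 were detected (17 and 19 UMIs), with Gfap, Aqp4, Sox10 and Olig2 at 0, and their sum was 27.0 to 50.5 CPM against 19.3 to 26.6 and 15.9 to 42.0 against 21.6 to 24.2. Of 9 neuronal markers 3 and 4 were detected (97 and 36 UMIs), with Snap25, Syt1, Dcx, Elavl3 and Elavl4 at 0, and their sum was 127 to 467 CPM against 179 to 210 and 55.8 to 73.0 against 86.5 to 106. Of 7 dopaminergic markers 3 were detected at each temperature (19 and 27 UMIs), with a sum of 0 to 64.9 CPM against 20.2 to 20.9 and 0 to 127 against 18.4 to 24.9. Th, Slc6a3, Pitx3 and Lmx1b were at 0 in members, although the T antigen of the line is under the Th promoter. In the much deeper kept sums all 7 had UMIs, 2144 in all at 37 °C and 1809 at 39 °C. A marker at 0 in the shallow member sums may thus still be present at a low level, here and for the other lists. For the immune, endothelial, glial, neuronal and dopaminergic lists at least 1 member sum lay above every kept sum at each temperature, except the neuronal list at 39 °C. The same held for the erythroid list at 37 °C. The part of such cells in the results was not tested. Markers of neural progenitors summed to 3068 to 4950.2 CPM of non-mitochondrial UMIs in the 37 °C members against 6227 to 6618 in kept cells, and to 2639 to 4486 against 5854 to 6654 at 39 °C, with 5 of 8 detected and Pax6, Msi1 and Fabp7 at 0. Markers of fibroblast or mesenchymal cells summed to 2277 to 4773 CPM against 1896 to 1973 at 37 °C, with 6 of 8 detected and Dcn and Thy1 at 0, and to 823 to 2468 against 895 to 933 at 39 °C, with 3 of 8 detected. Their part in the rise of the matrix genes, which share collagens with this list, was not tested.

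High-mitochondrial cells of both temperatures were also compared with each other. Of 8846 genes 51 were higher (0.577%) and 124 lower (1.40%) in 39 °C members than in 37 °C members, and in 140 of these 175 the libraries of both temperatures did not overlap, as in 617 of all 8846 genes (6.97%). Kept cells held 750 genes past the test with a log2 fold change over 1 in size (8.48% of those tested), and 707 of these (94.3%) had the same sign in members, where 137 passed the test. Over all 8846 genes the sign was shared by 6146 (69.5%). Of the 175 called in members, 174 were called with the same sign in kept cells, where 6905 of all 8846 genes (78.1%) were called.

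Genes of cell division were among those lower at 39 °C. Of 51 G2M genes 26 were lower at 39 °C in members (median log2 fold change -2.06, and -2.30 in kept cells), and of 41 S phase genes 5 were lower (median -0.87 and -1.47). Mki67, a marker of dividing cells, stood at 252, 364, 229 and 489 CPM in the 37 °C members and at 15.7, 12.6, 60.6 and 21.8 in the 39 °C members (-3.76 ± 0.43, edgeR adjusted p = 7.66e-11). Cenpf, a kinetochore protein, stood at 575, 275, 510 and 745 against 36.7, 25.2, 90.8 and 17.4 CPM (-3.82 ± 0.41, edgeR adjusted p = 1.20e-11). Neither overlapped between temperatures, and neither differed between members and kept cells past the test at either temperature (log2 fold changes 0.04 to 0.42).

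Among genes higher at 39 °C, Tnfrsf23, a decoy receptor for a death ligand, stood at 64.7, 37.0, 35.2 and 11.6 CPM in the 37 °C members and at 299, 202, 121 and 78.4 in the 39 °C members (2.14 ± 0.43, edgeR adjusted p = 0.00061). Irx3, a homeobox factor of neural patterning, stood at 43.1, 58.1, 0 and 23.3 against 168, 265, 75.7 and 174 CPM (2.16 ± 0.42, edgeR adjusted p = 0.000463). Mmp15, a membrane-bound matrix protease, was higher by 2.31 ± 0.50 (edgeR adjusted p = 0.00224). Nes, the intermediate filament of neural progenitors, was lower at 39 °C by 1.81 ± 0.35 (edgeR adjusted p = 0.000353).

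Whether the difference between members and kept cells itself changed with temperature was tested as a contrast in the same fit. Only 4 of 8846 genes passed (0.0452%; 493 at an unadjusted p under 0.05), and DESeq2 called 0 (281 unadjusted). The 4 were Igfbp3, Enpp2, Il1rl1 and Klf2, and in 3 of them few cells or UMIs carried the value. Of 30 UMIs of Igfbp3, an insulin-like growth factor binding protein, in the 37 °C members 24 came from 1 cell, and of 42 UMIs of Il1rl1, the interleukin 33 receptor, in the 39 °C members 37 came from 1 cell. Klf2, a transcription factor, had 0 of 446881 UMIs in the 37 °C members, which is at least 1.60-fold lower than in kept cells (10.8 CPM) with a floor of 3 counts over the group. At 39 °C it had 11 UMIs in 7 members. Enpp2, the secreted enzyme autotaxin, stood at 64.7, 31.7, 158 and 81.5 CPM in the 37 °C members against 11.3, 12.5, 9.25 and 8.71 in kept cells, and at 126, 63.1, 242 and 174 against 89.4, 80.6, 88.7 and 79.7 at 39 °C (difference of log2 fold changes -1.89, edgeR adjusted p = 0.046).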

How the data were processed

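Droplet libraries (10x Genomics Chromium, 3′ chemistry, version 3) of SN4741 cells were processed by the authors with Cell Ranger 3.0.1 against mm10, per the labels and the study's methods. The deposited values are raw UMI counts per gene and cell barcode, with 31053 genes and no normalization. Whether strand was used in counting is not given in the sources used here. Empty droplets were not analysed here, so free RNA was not estimated, and no doublet caller was run. Each of the 19125 barcodes held at least 502 UMIs.

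Groups were taken from the labels. Counts were summed per library over members and over kept cells without the 13 mitochondrial genes. Genes with a mean of at least 10 CPM were tested in edgeR 4.0.16 (R 4.3.3, quasi-likelihood, TMM factors, library as block, both temperatures in 1 fit), called at a Benjamini-Hochberg adjusted p of 0.05. Members of both temperatures were compared without a block. Fold changes are log2 of shares of non-mitochondrial UMIs. The depth of a member sum limits its precision. Shares of cells were compared by exact permutation tests (scipy 1.17.1). Coordinates and transcript lengths are from GENCODE annotation of GRCm38, which matched 8840 of 8846 tested genes. Cell cycle lists came from Seurat 5.3.0. The statistics were tested on simulated data first.

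Named genes were the 6 largest rises and falls per temperature among called genes of at least 100 CPM with the same direction in 4 libraries, up to 4 called members of each list, the 3 largest each way for both temperature contrasts, and a fixed set. Other genes named were chosen after their values were seen. The members and lists were chosen with earlier results of these data known. Alternatives were other scalings, filters, tools (DESeq2 1.42.0, limma 3.58.1), limits, kept cells matched in number or depth, other blocks and leaving out each library. The line at 10% ribosomal protein share, the ranges of mitochondrial share, their values per library and the list counts under each alternative were chosen after seeing the data.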

Additional observations from a re-analysis of the deposited data

Results flagged for a closer look

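In the 37 °C members, nuclear-retained RNA took 11.1% of non-mitochondrial UMIs in replicate 4, far from the 7.60 to 8.18% of the other libraries. In the 39 °C members, genes of the integrated stress response took 0.138% in replicate 3, below the 0.170 to 0.175% of the others. Chance alone singles out about 1 in 20 such groups of 4 libraries, and 2 of the 60 groups examined stood out.

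For 4 genes the difference between members and kept cells itself differed between temperatures in edgeR. The log2 fold change at 39 °C minus that at 37 °C was 2.96 for Il1rl1 (adjusted p = 0.0251), 12.6 for Klf2 (adjusted p = 0.0464), -5.14 for Igfbp3 (adjusted p = 0.00021) and -1.89 for Enpp2 (adjusted p = 0.0464). The value for Klf2 depends on the prior count of the fit, since it had no UMI in the 37 °C members, and those for Il1rl1 and Igfbp3 rest mostly on 1 cell each. Enpp2 came from 31 UMIs in 15 members at 37 °C and 85 UMIs in 34 members at 39 °C.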

How the results depend on the processing

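The comparison at 37 °C called 1744 genes, and 167 with members at 15 to 20%, 592 with kept cells matched in depth, 1094 with cells weighted equally (limma) and 966 to 1918 without 1 library, the lowest without replicate 4 at 37 °C. At 39 °C it called 294, and 1085 with members over 20%, 7 at 15 to 20%, 108 with an equal number of kept cells, 15 with kept cells matched in depth, 0 with cells weighted equally (limma, 1274 at an unadjusted p under 0.05), 242 by DESeq2 and 6 to 891 without 1 library (6, 18, 75 and 891 without replicates 1, 2, 3 and 4 at 39 °C, and 192 without replicate 2 at 37 °C). The difference between temperatures called 4 genes in edgeR. It called 2 with RLE scaling, 6 with library totals, 1 with members over 20%, 2 at 15 to 20%, 1 with an equal number of kept cells, 1 with limma, and 1 to 18 without 1 library (18 and 8 without replicates 1 and 4 at 39 °C). It called 0 with a mean of 50 CPM (296 at an unadjusted p under 0.05), with matched depth (348) and by DESeq2 (281). Members at 39 °C against 37 °C gave 175 genes, 76 over 20%, 92 by DESeq2 and 92 to 282 without 1 library (92 and 110 without replicates 2 and 4 at 37 °C, 282 and 111 without replicates 1 and 3 at 39 °C). With RLE scaling 847 of 1754 calls at 37 °C were higher and 134 of 254 at 39 °C.

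Both sums of a library come from the same cells' culture, capture and sequencing and are a true pair. Without this replicate block 538 genes were called at 39 °C and 0 for the difference between temperatures (736 at an unadjusted p under 0.05). Replicate numbers are shared across temperatures but did not pair the libraries (same-number correlations -0.232 to -0.048). As a block they left 92 calls for members at 39 °C against 37 °C and a difference of 0.00475 points in the share of cells (exact permutation p = 1).

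The share of cells differed by 11.8, -0.255 and -0.481 points with limits of 10, 20 and 30%, and by -0.592 to 0.395 without 1 library (-0.592 without replicate 1 at 39 °C, -0.328 without replicate 3 at 37 °C). Genes detected differed by 2.31 and 31.7 at 1000 and 2000 UMIs, by -9.81 with members over 20% (exact permutation p = 0.0469) and by -5.00 to -0.857 without 1 library.

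Of the values of named genes, 2563 kept their direction and side of the threshold, 682 kept the direction only and 19 turned. With kept cells matched in depth the log2 fold change was -0.11 for Gm42418 at 39 °C, and at 37 °C 0.84 for Tagln, 0.17 for Ccnd2, 0.055 for Hspd1, 0.35 for Nupr1, 0.31 for Tuba1c and 0.21 for Nes. With members at 15 to 20% it was, at 37 °C, -0.018 for Tapbp, -0.36 for Aifm1, -0.18 for Pdia6, -0.55 for Hsp90b1, -0.58 for Hspa5, -0.27 for Cyr61, -0.74 for Ebp and -0.72 for Aspm. The median of all tested genes was -0.34 in that setting. With members over 20% Il1rl1 stood at -8.46 at 39 °C and -9.75 for the difference. With cells weighted equally it was 0.16 for Nes at 37 °C and -1.17 for the difference in Il1rl1. The causes were not tested. Member sums of 49146 to 233169 UMIs limit what could be seen for genes of low level.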

Other observations

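Of 20 cholesterol synthesis genes tested at 37 °C, Cyp51, Ebp and Msmo1 rose by 1.13, 1.00 and 0.94, and Fdps and Idi1 fell by 1.10 and 1.20 (edgeR, adjusted p under 0.05 each). The other 15 did not pass and lay between -1.32 and 0.90, 7 above 0 and 8 below. The counts of 3 higher and 2 lower lie near the shares over all tested genes, 8.23% and 11.5%. They are not read as a result about the list. Ebp stood at -0.74 in members at 15 to 20%, where the median of all tested genes was -0.34. Without replicate 1 or 4 at 37 °C none of the 20 passed as lower. Among cell cycle genes at 37 °C, Cks2 and Cks1b, small partners of cyclin-dependent kinases, fell by 1.53 and 1.62, while Lbr, a receptor of the inner nuclear membrane, rose by 0.91. These genes were picked after their values were seen.

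Celf5, an RNA-binding protein the study used as a marker of 39 °C, stood at 80.6 ± 19.8 CPM (SD, n = 4) in the 37 °C members against 62.2 ± 5.16 in kept cells, and at 255 ± 66.0 against 208 ± 8.77 at 39 °C, higher in 3 of 4 libraries at each temperature without passing the test.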
